A study of Sciaenops ocellatus with 24 samples.

Results

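The miRNAs of the miR-17-92 family were followed in red drum larvae exposed to oil. They were taken by name from the deposited count tables, from a list of names of miR-17, miR-18, miR-19, miR-20, miR-25, miR-92, miR-93 and miR-106. The list holds 9 of the 260 names in all tables: ola-miR-17, oan-miR-20a-5p, dre-miR-93, ola-miR-106a, ssa-miR-18a-5p, ola-miR-19b, ssa-miR-19c-4-5p, hsa-miR-25-5p and sha-miR-92a. All 9 were listed in all 6 tables and counted in each of the 24 libraries, the lowest count being 851, so a low-count filter removed none of them. The prefix of a name is the species of the reference entry that the reads were counted under (ola for medaka, ssa for Atlantic salmon, dre for zebrafish, sha for Tasmanian devil, oan for platypus, hsa for human), not the species sampled.

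The libraries held small RNA of pooled whole larvae of the red drum, Sciaenops ocellatus, 48 hours after fertilization. Larvae exposed to slick oil, which had weathered at sea and was collected at the surface during the Deepwater Horizon spill, received 1.25%, 2.50% or 5.00% by volume of a water accommodated fraction made by blending the oil into seawater at high energy. They were set against a slick control kept without oil. Larvae exposed to source oil, a pipeline oil that stands in for the oil before weathering, received 0.135%, 0.27% or 0.54% of the same kind of preparation and were set against a source control of their own. Each of the 8 groups had 3 libraries. The percentages of the oils are not equal doses, so only ranks of concentration match. Separate spawns or tanks are not mentioned in the labels, and the p-values therefore describe the spread among these libraries only, part or all of which may be technical. In pools of whole larvae, fewer cells of a type and less RNA per cell cannot be told apart.

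The miR-17-92 cluster is transcribed as a single precursor from which the mature miR-17, miR-18a, miR-19a, miR-20a, miR-19b and miR-92a are cut, and its paralogous clusters carry miR-106a, miR-106b, miR-93, miR-25 and further copies of the same kinds. A mature miRNA finds its targets mainly through its seed, a short stretch near its 5′ end. By seed, the miR-17, miR-20, miR-93 and miR-106 miRNAs form a group, miR-18 resembles it but has its own seed, miR-19 forms another, and miR-25 and miR-92 form the last. In mammals the cluster is activated by the transcription factor MYC, is abundant in dividing embryonic cells, and its loss in mice impairs the growth of the heart and lung. miR-92a is known there for its action in blood vessels. The arm in a name (5p or 3p) was not checked against reads. The miR-25 that shares the seed of miR-92a is the 3p arm, so hsa-miR-25-5p is placed with sha-miR-92a by its number only. The other names were also grouped by number, ssa-miR-19c-4-5p included, and no seed was checked against a sequence.

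Library totals ranged from 2820454 to 4346165 counts at 5.00% slick oil, the shallowest group, and from 4440488 to 9741582 counts in the other groups. At the lowest count of a member, 851, counting error is small beside the spread between libraries. A library that stood apart was replicate 3 at 2.50% slick oil, whose levels of 103 names counted in all 24 libraries deviated from the slick control mean by 0.84 on the log2 scale (root mean square). Replicate 2 of that group followed with 0.72, and the other exposed libraries had 0.25 to 0.58. Levels below are CPM, a library's counts set to a common total of these 103 names rather than of all its names. They are on a scale shared by the 24 libraries (TMM factors) and not divided by length, mature miRNAs being of nearly equal length. Fold changes are from edgeR's quasi-likelihood test within each table, over names counted in every library of that table, and a call is a Benjamini-Hochberg adjusted p under 0.05 over all of them.

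In the controls the members spanned a wide range of levels. Over the 6 control libraries sha-miR-92a averaged 17094 ± 3794 CPM, ssa-miR-18a-5p 15324 ± 1504, hsa-miR-25-5p 6835 ± 1095 and ola-miR-17 4057 ± 561 (SD, n = 6). The lower end held oan-miR-20a-5p with 3285 ± 1036 CPM, ola-miR-106a with 1288 ± 335, dre-miR-93 with 558 ± 172, ola-miR-19b with 350.0 ± 92.9 and ssa-miR-19c-4-5p with 349 ± 92.8. Across the 6 libraries 4 pairs of neighbours in this order overlapped: sha-miR-92a with ssa-miR-18a-5p, ola-miR-17 with oan-miR-20a-5p, dre-miR-93 with ola-miR-19b, and the 2 miR-19 names. The upper pair changed places between the experiments. Each of the 3 slick controls had more ssa-miR-18a-5p (15643 to 17956 CPM) than any had sha-miR-92a (11976 to 15241 CPM), and each of the 3 source controls had more sha-miR-92a (18855 to 21781 CPM) than any had ssa-miR-18a-5p (13819 to 14381 CPM). Counted with miR-19 once, the family took 4.14% in the slick control and 4.08% in the source control of the counts of the 141 names listed in all 6 tables.

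Both miR-19 names had nearly the same counts, differing by -3 to 11 counts and by at most 0.491% in any library, with equal counts in 2 of the 24. They are therefore described as a single measurement under ola-miR-19b, but both are counted where members are counted. The other names had separate counts. A further family name outside the list, chi-miR-18b-5p, was counted far lower, so that ssa-miR-18a-5p had 69.6 to 196 times its counts over the 24 libraries.

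**Figure D1:**
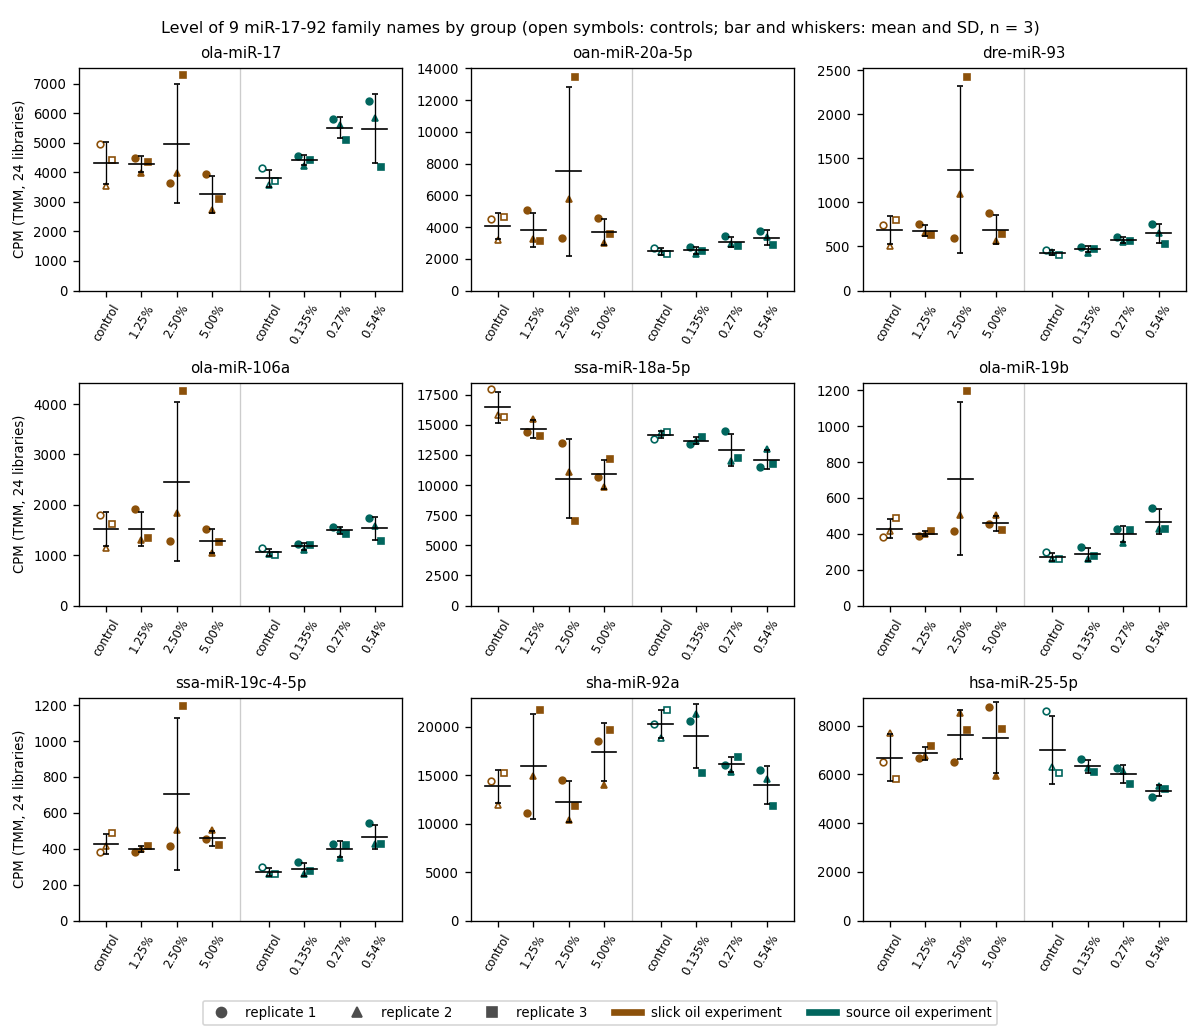
Level of each of the 9 names (vertical axes, CPM, each panel starting at 0) in the 8 groups (horizontal axes, control and rising concentration of slick oil on the left and of source oil on the right). Symbols are the 3 libraries of a group and bars with whiskers the mean and SD. In the source panels ola-miR-17, oan-miR-20a-5p, dre-miR-93, ola-miR-106a and the miR-19 names lie higher at 0.54% than in the control, while hsa-miR-25-5p and sha-miR-92a lie lower; replicate 3 at 2.50% slick oil stands apart in the panels of the miR-17 seed group and miR-19, where it is the highest library.

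In larvae exposed to source oil the miR-17 and miR-19 names moved against miR-92a and miR-25. At 0.54%, the highest concentration, all 4 members of the miR-17 seed group (ola-miR-17, oan-miR-20a-5p, dre-miR-93 and ola-miR-106a) and both miR-19 names rose, hsa-miR-25-5p and sha-miR-92a fell, and ssa-miR-18a-5p was not called. These 6 higher and 2 lower calls among 9 members stand beside 39.5% of the 119 names tested that were called, 17.6% higher and 21.8% lower. The median log2 fold change of the 9 members was 0.52, against 0.03 over all names tested. The CPM of every member lay outside the range of the controls, 6 above and 3 below, whereas 60.5% of all names did so, 30.3% above and 30.3% below.

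Within the miR-17 seed group, ola-miR-17, whose mammalian namesake gives the cluster its name, was at 6410, 5856 and 4174 CPM in the 0.54% source libraries and at 4134, 3582 and 3697 CPM in the source controls. The lowest exposed library thus lay only just above the highest control, and replicate 3 was the low one. The log2 fold change was 0.52 ± 0.15 (SE, edgeR adjusted p = 0.0255, n = 3 against 3). oan-miR-20a-5p, encoded in the same cluster as miR-17 in vertebrates, was at 3782, 3372 and 2845 CPM with exposure and at 2693, 2449.8 and 2279.7 CPM in the controls, a log2 fold change of 0.43 ± 0.11 (adjusted p = 0.0191, edgeR). dre-miR-93, a miRNA of the paralogous miR-106b-25 cluster, was at 758, 652 and 531 CPM with exposure and at 460, 434 and 399 CPM in the controls. Its log2 fold change was 0.58 ± 0.13 (adjusted p = 0.0101, edgeR). ola-miR-106a, of the X-linked paralogous cluster in mammals, averaged 1530 ± 231 CPM with exposure and 1056 ± 67.1 CPM in the controls (SD, n = 3 each), a log2 fold change of 0.53 ± 0.12 (adjusted p = 0.00962, edgeR). In all 4, replicate 3 was the lowest exposed library and replicate 1 the highest.

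The miR-19 names showed the widest change of the family at this concentration. ola-miR-19b was at 546, 428 and 427 CPM in the 0.54% source libraries and at 299, 257 and 261 CPM in the source controls. The exposed libraries were clear of the controls by more than the spread of either group. The log2 fold change was 0.78 ± 0.12 (adjusted p = 0.00399, edgeR), and ssa-miR-19c-4-5p had the same rounded values. In deposited counts this was 3777, 2528 and 3270 with exposure, against 1516, 1317 and 1265 in the controls.

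The miR-25/92 members went the other way. sha-miR-92a was at 15578, 14618 and 11849.8 CPM in the 0.54% source libraries and at 20283, 18855 and 21781 CPM in the source controls, with no overlap. The log2 fold change was -0.54 ± 0.12 (adjusted p = 0.00925, edgeR). hsa-miR-25-5p was at 5090.4, 5509 and 5388 CPM with exposure and at 8619, 6302 and 6066 CPM in the controls, where replicate 1 stood well above the others. Its log2 fold change was -0.39 ± 0.13 (adjusted p = 0.0440, edgeR). ssa-miR-18a-5p, cut from the same mammalian precursor as miR-17, was at 11531, 13012 and 11786 CPM with exposure and at 13819, 14365 and 14381 CPM in the controls. Its log2 fold change of -0.23 ± 0.09 missed the threshold (adjusted p = 0.0604, edgeR).

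The lower calls rest on the scaling. In the fits called library totals alone, TMM factors were left out. Each library was scaled there by the summed counts of the names tested, not by its full total. The all-names median was then 0.27 and edgeR called 43 names higher and 14 lower, against 21 higher and 26 lower with TMM. Under that scaling 6 members were still called higher, but sha-miR-92a (-0.30, adjusted p = 0.118) and hsa-miR-25-5p (-0.17, adjusted p = 0.357) were not called by edgeR. The number of members called was 7 without source control replicate 1, 5 without replicate 2 and 4 without replicate 3, and 6, 5 and 8 without 0.54% replicates 1, 2 and 3. The miR-19 names and dre-miR-93 were called each time, whereas hsa-miR-25-5p lost its call without source control replicate 1 (log2 fold change -0.24) or 3 or 0.54% replicate 1 or 2, ola-miR-17 without source control replicate 2 or 3 or 0.54% replicate 1 or 2, and oan-miR-20a-5p without source control replicate 2 or 3 or 0.54% replicate 2. ola-miR-106a lost it without source control replicate 2 (adjusted p = 0.0515, edgeR) and sha-miR-92a without replicate 3 (adjusted p = 0.0536, edgeR). When names at 0 in some libraries were also tested, edgeR called only the miR-19 names among the members (adjusted p = 0.0295 each), beside 14.4% of 153 names (2.61% higher). The authors' deposited table had 6 of the 9 members higher and 3 lower, ssa-miR-18a-5p included, beside 31.8% of its 198 names.

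**Figure D2:**
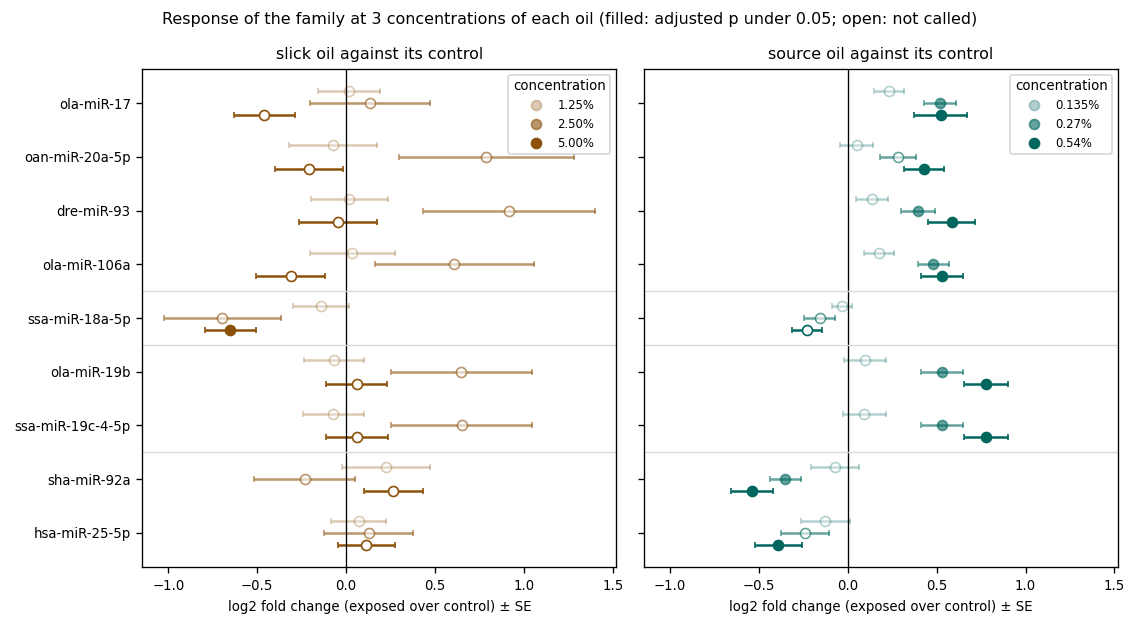
Log2 fold change of exposed over control libraries (horizontal axis, with SE) for the 9 names (vertical axis, in seed groups assigned by number). Slick oil is on the left and source oil on the right, each at 3 concentrations. Filled points are calls at an adjusted p under 0.05. On the right the points move outward from 0.135% to 0.54%, to 0.78 for ola-miR-19b and to -0.54 for sha-miR-92a; on the left the only filled point is ssa-miR-18a-5p at 5.00% with -0.65.

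At 0.27% source oil 5 members rose and 1 fell. In the miR-17 seed group ola-miR-17, ola-miR-106a and dre-miR-93 rose, both miR-19 names rose, and sha-miR-92a fell, beside 23.5% of 115 names called (9.57% higher and 13.9% lower). ola-miR-17 was at 5797, 5624 and 5107 CPM in the 0.27% source libraries and at 4134, 3582 and 3697 CPM in the source controls, with a log2 fold change of 0.52 ± 0.09 (adjusted p = 0.0220, edgeR). Its exposed libraries were more alike here than at 0.54%. ola-miR-106a changed by 0.48 ± 0.09, ola-miR-19b by 0.53 ± 0.12, dre-miR-93 by 0.40 ± 0.10 and sha-miR-92a by -0.35 ± 0.09 on the log2 scale (edgeR adjusted p = 0.0220 to 0.0277). oan-miR-20a-5p (0.28 ± 0.10, adjusted p = 0.0806, edgeR), ssa-miR-18a-5p (-0.16 ± 0.09) and hsa-miR-25-5p (-0.24 ± 0.13) were not called. The groups did not overlap for 7 members, 6 above and 1 below, beside 39.1% of all names.

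These 0.27% calls were less firm. No member was called by edgeR without source control replicate 2, without source control replicate 3 or without 0.27% replicate 2, and 2 were called without 0.27% replicate 3. When names with zeros were also tested 0 members were called (1.27% of 158 names). In the fit of 115 names 7 members were under an unadjusted p of 0.05, beside 43 of all names. DESeq2 called 6 members, beside 28 of all names. With library totals alone, where the median of all names moved to 0.22 and the calls over all names to 31 higher and 2 lower, against 11 higher and 16 lower with TMM, sha-miR-92a was at -0.16 (adjusted p = 0.277, edgeR), ssa-miR-18a-5p turned to 0.03, and oan-miR-20a-5p was called with 0.47. Without source control replicate 1 sha-miR-92a alone lost its call (adjusted p = 0.0547, edgeR).

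At 0.135%, the lowest source concentration, edgeR called 0 of the 9 members, beside 0 of 114 names, or 1.28% of 156 when names with zeros were also tested. In that fit of 114 names 27 names, ola-miR-17 alone among the members, were under an unadjusted p of 0.05, and DESeq2 called 13 names and no member. ola-miR-17 was at 4569, 4227 and 4426 CPM in the 0.135% source libraries and at 4134, 3582 and 3697 CPM in the source controls, a log2 fold change of 0.23 ± 0.08 (adjusted p = 0.133, edgeR). Its groups did not overlap, as those of 26.3% of all names did not. The authors' deposited table called ola-miR-17 higher (adjusted p = 0.0217) among 11.3% of its 195 names. The other members lay between -0.13 and 0.18 on the log2 scale.

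Along the source series the shares of the family held by the miR-17 and miR-25/92 groups shifted in opposite directions, in steps. In the order of the source control, 0.135%, 0.27% and 0.54%, the miR-17 seed group held 15.7%, 17.9%, 23.1% and 25.5% of the CPM of the family, and the miR-25/92 group 55.1%, 52.8%, 48.1% and 45.1%. miR-19 held 0.549%, 0.599%, 0.865% and 1.09%, while ssa-miR-18a-5p stayed between 28.0% and 28.7%. These shares add up to 100%, so a rise in the share of a group lowers those of others, and the shifts are not separate results. Of all counts, without TMM factors, the miR-17 seed group took 0.638%, 0.719%, 1.03% and 1.15% in the same order. The miR-25/92 group took 2.25%, 2.13%, 2.17% and 2.01%. The family as a whole had 49528 ± 2107, 47955 ± 3246, 46076 ± 2269 and 42911 ± 4015 CPM in that order (SD, n = 3 each). As a share of the counts of the same 141 names, without TMM factors, it had 4.08%, 4.02%, 4.49% and 4.46%. The direction of the family total therefore depends on the scaling.

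A linear slope on concentration over the 12 source libraries, given per 0.54% of source oil, was called for 7 of the 8 members tested, 5 higher and 2 lower, beside 52.3% of 109 names (27.5% higher and 24.8% lower). The miR-19 names had the steepest slopes among them, each 0.88 ± 0.13 on the log2 scale (adjusted p = 0.000125, edgeR). dre-miR-93 had 0.66 ± 0.12, ola-miR-106a 0.60 ± 0.12 and oan-miR-20a-5p 0.51 ± 0.11 on the log2 scale. sha-miR-92a had -0.51 ± 0.12 (adjusted p = 0.00308, edgeR) and hsa-miR-25-5p -0.33 ± 0.10 (adjusted p = 0.0145, edgeR). ssa-miR-18a-5p, at -0.19 ± 0.08 (adjusted p = 0.0669, edgeR), was not called, and was called when 0.135% replicate 3 (adjusted p = 0.0328), 0.27% replicate 1 (0.0380) or 0.54% replicate 2 (0.0250) was left out, and by DESeq2 (0.0211). The related name chi-miR-18b-5p, outside the list, had a slope called higher, 0.29 ± 0.12 (adjusted p = 0.0460, edgeR). At 0.54% alone it was not called (0.20 ± 0.13, adjusted p = 0.231, edgeR).

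ola-miR-17 was not part of that fit because its count in source control replicate 1 was 20890 in the 0.27% table and 20992 in the others. With that name kept, its slope was 0.58 (adjusted p = 0.00325, edgeR). The slopes of the 5 higher members were called under every alternative run and with each of the 12 libraries left out. With library totals alone, which moved the median slope of all names from 0.09 to 0.35 and the calls to 49 higher and 10 lower, against 30 higher and 27 lower with TMM, sha-miR-92a was at -0.25 (adjusted p = 0.139, edgeR), hsa-miR-25-5p at -0.09 and ssa-miR-18a-5p at 0.06.

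Slick oil gave another picture, with ssa-miR-18a-5p as its single called member. At 5.00% it was at 10677, 9828 and 12156 CPM in the exposed libraries and at 17956, 15779 and 15643 CPM in the slick controls, the exposed libraries lying below every control. Its log2 fold change was -0.65 ± 0.14 (adjusted p = 0.0320, edgeR), beside 5.5% of 109 names called (2.75% lower), and the authors' deposited table also had it lower (adjusted p = 1.44e-07). The libraries of this group were the shallowest, and the deposited counts of ssa-miR-18a-5p were 21813, 34093 and 24719 with exposure, against 92664, 100163 and 113934 in the controls. The part of depth in this difference was not tested. The related name chi-miR-18b-5p was not called, with a log2 fold change of -0.0046 ± 0.20 (adjusted p = 0.987, edgeR); the difference between both names was not tested. ssa-miR-18a-5p was the only one of the 9 members whose groups did not overlap, beside 23.9% of all names.

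The ssa-miR-18a-5p call at 5.00% was fragile. edgeR called ssa-miR-18a-5p without slick control replicate 2 (adjusted p = 0.0209) but not without slick control replicate 1 (0.0953) or replicate 3 (0.102) or without 5.00% replicate 1 (0.135), replicate 2 (0.137) or replicate 3 (0.108), while its log2 fold change stayed between -0.70 and -0.58. For ssa-miR-18a-5p DESeq2 gave an adjusted p of 0.00137 (12 names called), and edgeR 0.0548 when names with zeros were also tested (2.01% of 149 names called); with library totals alone it was at -0.79 (adjusted p = 0.00912), where edgeR called 0 names higher and 3 lower, against 3 higher and 3 lower with TMM.

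The remaining members were not called at 5.00% slick oil. ola-miR-17 was at 3948, 2732 and 3086 CPM in the exposed libraries and at 4957, 3541 and 4428 CPM in the slick controls, which overlap, a log2 fold change of -0.46 ± 0.17 (adjusted p = 0.164, edgeR). The other miR-17 seed group members lay at -0.31 ± 0.19 (ola-miR-106a), -0.21 ± 0.19 (oan-miR-20a-5p) and -0.04 ± 0.22 (dre-miR-93). ola-miR-19b was at 0.06 ± 0.17, sha-miR-92a at 0.27 ± 0.17 and hsa-miR-25-5p at 0.11 ± 0.16. With library totals alone ola-miR-19b (-0.08), ssa-miR-19c-4-5p (-0.07) and hsa-miR-25-5p (-0.03) changed sign, as dre-miR-93 did with all 12 slick libraries in the fit (0.02), so no direction is given for them. The median of the 9 members was -0.04, against 0.01 over all names.

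At 1.25% slick oil edgeR called 0 of 117 names and none of the 9 members, whose log2 fold changes lay between -0.14 (ssa-miR-18a-5p) and 0.22 (sha-miR-92a). At an unadjusted p under 0.05 there were 3 names and no member, and DESeq2 called 1 name and no member. ssa-miR-18a-5p was at 14382, 15504 and 14089 CPM with exposure and at 17956, 15779 and 15643 CPM in the controls, the one member without overlap, beside 7.69% of all names. sha-miR-92a varied most among the exposed libraries, with 11073, 14987 and 21749.5 CPM.

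At 2.50% slick oil edgeR again called 0 of 117 names. At an unadjusted p under 0.05 there were 8 names and no member, and DESeq2 called 0 names. The values were dominated by replicate 3. oan-miR-20a-5p was at 3281, 5762 and 13488 CPM in the exposed libraries and at 4509, 3154 and 4624 CPM in the slick controls. dre-miR-93 was at 591, 1091 and 2428 CPM with exposure and at 748, 505 and 800.4 CPM in the controls. In replicate 3 the miR-17 seed group made up 49.6% of the CPM of the family, against 18.9% to 23.6% in the slick controls.

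That library deviated from the slick control mean by 1.86 for dre-miR-93, 1.74 for oan-miR-20a-5p, 1.51 for ola-miR-106a, 1.49 for ola-miR-19b and 0.78 for ola-miR-17 on the log2 scale. It had -1.23 for ssa-miR-18a-5p, -0.22 for sha-miR-92a and 0.24 for hsa-miR-25-5p. Within the miR-17 seed group the members thus moved by unequal amounts there. The fitted log2 fold changes of the group at 2.50% were 0.91 ± 0.48 for dre-miR-93, 0.79 ± 0.49 for oan-miR-20a-5p, 0.61 ± 0.45 for ola-miR-106a and 0.13 ± 0.34 for ola-miR-17, and without replicate 3 they were 0.21, 0.06, -0.04 and -0.25 in the same order. ola-miR-19b was at 0.65 ± 0.40, and at 0.04 without it. ssa-miR-18a-5p was at 13485, 11122 and 7007 CPM with exposure, below the 17956, 15779 and 15643 CPM of the controls, with -0.70 ± 0.33 (adjusted p = 0.707, edgeR). Its groups did not overlap, as those of 13.7% of all names did not. The part that the state of replicate 3 has in these values was not tested.

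Over the 12 slick libraries the slope on concentration, per 5.00% of slick oil, was called for none of the 9 members by edgeR, beside 1% of 100 names, and DESeq2 called 0 members. At an unadjusted p under 0.05 there were 10 names. ssa-miR-18a-5p, the one member under an unadjusted p of 0.05, had a slope of -0.62 ± 0.26 (adjusted p = 0.393, edgeR), and was called with -0.65 (adjusted p = 0.0424) without 2.50% replicate 3. Its mean level was 16459 ± 1298 CPM in the slick control, 14658 ± 747 at 1.25%, 10538 ± 3278 at 2.50% and 10887 ± 1178 at 5.00% (SD, n = 3 each). chi-miR-18b-5p had a slope of 0.05.

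**Figure D3:**
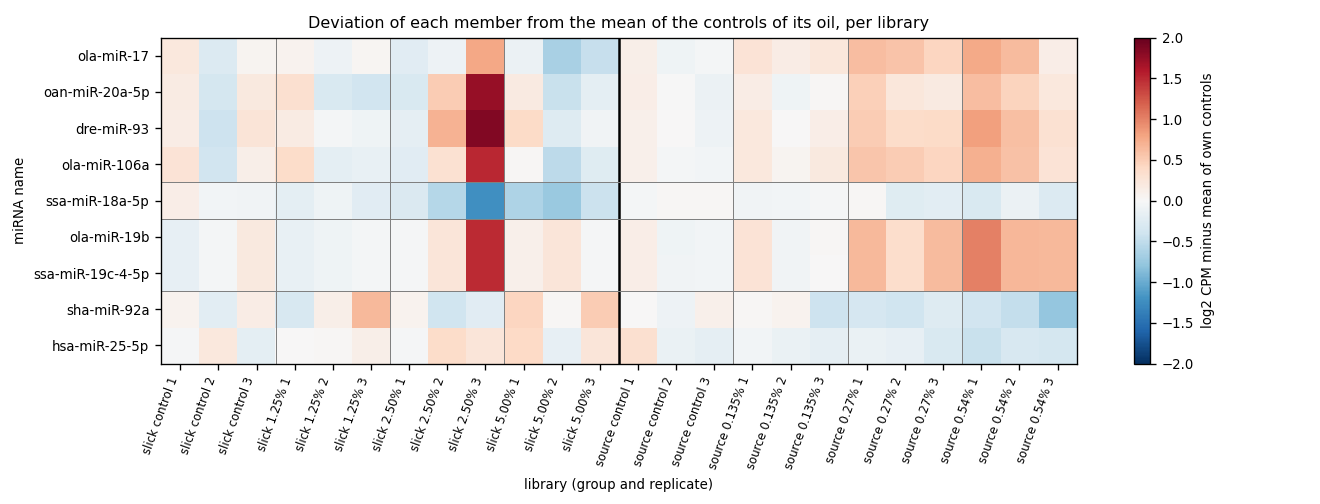
Log2 CPM of each of the 9 names (rows) minus the mean of the 3 controls of the same oil, for each of the 24 libraries (columns). Red is above and blue below the control mean. Replicate 3 at 2.50% slick oil reaches 1.86 for dre-miR-93 and -1.23 for ssa-miR-18a-5p; the source columns turn red for the miR-17 and miR-19 groups and blue for sha-miR-92a toward 0.54%.

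The response to 5.00% slick oil was set against the response to 0.54% source oil by fitting the difference between both, which asks whether the oils moved a member unequally. It was called for 5 of the 9 members, 1 higher and 4 lower, beside 25.2% of 107 names (12.1% higher and 13.1% lower). The miR-17 and miR-19 names were lower in the slick than in the source response: ola-miR-17 by a log2 difference of -0.98 ± 0.24 (adjusted p = 0.0128, edgeR), ola-miR-106a by -0.84 ± 0.25 (0.0182) and ola-miR-19b by -0.73 ± 0.21 (0.0178), with ssa-miR-19c-4-5p alike. sha-miR-92a was higher, by 0.81 ± 0.22 (adjusted p = 0.0154, edgeR). oan-miR-20a-5p (-0.63, adjusted p = 0.0653), dre-miR-93 (-0.63, 0.0944), ssa-miR-18a-5p (-0.41, 0.0944) and hsa-miR-25-5p (0.51, 0.108) were not called by edgeR.

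edgeR called ssa-miR-18a-5p at 5.00% slick oil but not at 0.54% source oil (adjusted p = 0.0604). The authors' deposited table had it lower at both. With no call for the difference, ssa-miR-18a-5p is not shown to differ between the 2 responses. Its difference was nevertheless called without slick control replicate 2 (-0.52, adjusted p = 0.0233, edgeR), without 5.00% replicate 3 (-0.55, 0.0392) and with library totals alone (-0.77, 0.00490). ola-miR-17 and sha-miR-92a were called each time 1 of the 12 libraries was left out. Without slick control replicate 3, source control replicate 2 or 0.54% replicate 1 no other member was called, without source control replicate 3 or 0.54% replicate 2 ola-miR-106a lost its call, and without slick control replicate 2 there were 8 calls among the members and without 5.00% replicate 1 there were 7. With library totals alone, which moved the median difference of all names to -0.36 and the calls over all names to 5 higher and 35 lower, against 13 higher and 14 lower with TMM, 7 members were called lower and sha-miR-92a was at 0.44 (adjusted p = 0.108, edgeR), and with names at 0 in some libraries also tested edgeR called 0 members and 3.01% of 133 names. At the lower ranks of concentration, edgeR called 0 of 112 and 0 of 111 names, 8 names and no member were under an unadjusted p of 0.05 in each, and DESeq2 called 0. Without 2.50% replicate 3 ola-miR-17 alone was called at the middle rank (-0.79, adjusted p = 0.0489, edgeR).

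The controls of the 2 experiments were themselves unlike in the family. Between the slick control and the source control 6 members were called, 5 higher and 1 lower, beside 46% of 113 names (21.2% higher and 24.8% lower). oan-miR-20a-5p was at 4509, 3154 and 4624 CPM in the slick control and at 2693, 2449.8 and 2279.7 CPM in the source control, a log2 difference of 0.71 ± 0.16 (adjusted p = 0.00550, edgeR). dre-miR-93 differed by 0.65 ± 0.18, ola-miR-19b by 0.63 ± 0.15, ola-miR-106a by 0.50 ± 0.17 and sha-miR-92a by -0.57 ± 0.13 on the log2 scale. ola-miR-17 (0.16 ± 0.15), ssa-miR-18a-5p (0.19 ± 0.11) and hsa-miR-25-5p (-0.09 ± 0.16) were not called. The 0.54% source response and this difference share the source controls, and their values stand side by side here for that reason only. They were 0.78 and 0.63 for ola-miR-19b, 0.58 and 0.65 for dre-miR-93, 0.53 and 0.50 for ola-miR-106a and -0.54 and -0.57 for sha-miR-92a. For oan-miR-20a-5p they were 0.43 and 0.71, for ola-miR-17 0.52 and 0.16, and for hsa-miR-25-5p -0.39 and -0.09. ssa-miR-18a-5p had opposite signs, -0.23 and 0.19.

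The number of members called between the controls was 4 without slick control replicate 3 and 4 without source control replicate 2, dre-miR-93 and ola-miR-106a being the ones lost, 5 without slick control replicate 1 or source control replicate 3 (ola-miR-106a lost), and 7 without slick control replicate 2 (ola-miR-17 gained). It was also 4 when names with zeros were tested (25.6% of 129 names called), again without dre-miR-93 and ola-miR-106a. Neither control was exposed, and each belongs to 1 experiment, so differences between experiments of any kind cannot be told apart here. The baselines of the 2 series thus differed for these members: ola-miR-19b averaged 428 ± 53.6 CPM in the slick control, near the 467 ± 68.5 CPM of 0.54% source oil and above the 272 ± 22.9 CPM of the source control (SD, n = 3 each).

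A ratio of 2 members in the same library does not depend on the scaling. The ratio of ola-miR-17 to sha-miR-92a was 0.411, 0.401 and 0.352 in the 0.54% source libraries and 0.204, 0.19 and 0.17 in the source controls. Over all 9 exposed source libraries 8 lay above all 3 controls, the mean log2 ratio differing by 0.74 (exact two-sided permutation test, p = 0.0182, and 0.109 after Benjamini-Hochberg adjustment over 6 such tests). The ratio of ola-miR-19b to sha-miR-92a differed by 0.79, again with 8 of 9 exposed libraries above all controls (exact permutation p = 0.0364, adjusted 0.109). Neither passed after adjustment, where 9 against 3 libraries allow a p no lower than 0.00909. Both reached an adjusted p of 0.0364 in the exact permutation test without 0.135% replicate 2. In both ratios that was the one exposed library not above all controls. Leaving it out sets both tests at their lowest possible p, so nothing is concluded from it.

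With slick oil the ratio of ola-miR-17 to sha-miR-92a differed by -0.18 on the log2 scale (exact permutation p = 0.636, 9 against 3 libraries) and that of ola-miR-19b by 0.10 (p = 0.945). At 5.00% alone the ola-miR-17 ratio was 0.212, 0.195 and 0.157, below the 0.344, 0.296 and 0.291 of the slick controls, and in 3 against 3 libraries an exact permutation p cannot go below 0.1. The ratio of ssa-miR-18a-5p to sha-miR-92a was 0.575, 0.702 and 0.619 at 5.00% slick oil and 1.24, 1.32 and 1.03 in the slick controls. Over the 9 slick-exposed libraries it differed by -0.58, with 6 of 9 below all controls (exact permutation p = 0.0727, adjusted 0.145), and over the 9 source-exposed libraries by 0.18 (exact permutation p = 0.245, adjusted 0.368).

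**Figure D4:**
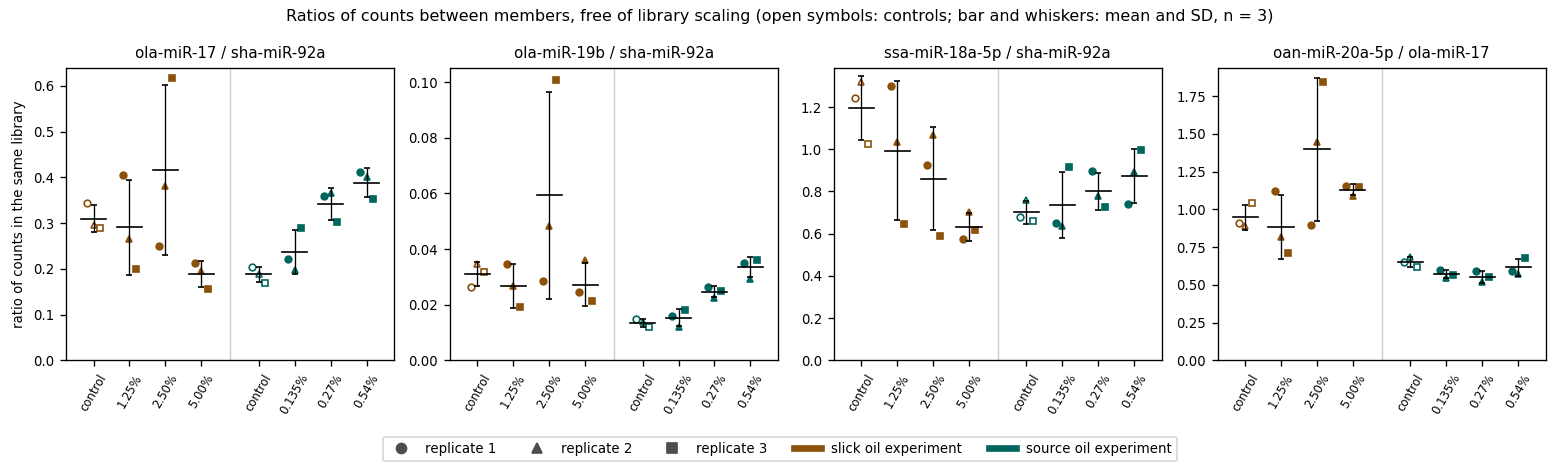
Ratio of counts of 2 members in the same library (vertical axes, starting at 0) by group (horizontal axes), with bars and whiskers for the mean and SD of 3 libraries. The ratios of ola-miR-17 and ola-miR-19b to sha-miR-92a climb along the source series, the ratio of ssa-miR-18a-5p to sha-miR-92a is lower at 5.00% slick oil than in its control, and every slick library lies above every source library in the ratio of oan-miR-20a-5p to ola-miR-17.

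The members of the miR-17 seed group kept different proportions in the 2 experiments, exposed or not. These proportions were chosen for description after their values were seen. The ratio of oan-miR-20a-5p to ola-miR-17 was 0.711 to 1.84 over the 12 slick libraries and 0.516 to 0.684 over the 12 source libraries, with no overlap. That of dre-miR-93 to ola-miR-17 was 0.142 to 0.332 and 0.0985 to 0.127 in the same order, and that of ola-miR-106a to ola-miR-17 was 0.309 to 0.582 and 0.26 to 0.307. At 0.135% source oil the ratio of oan-miR-20a-5p to ola-miR-17 was 0.549 to 0.6 and at 0.27% it was 0.516 to 0.593, both below the 0.617 to 0.684 of the source control. At 0.54% it was 0.59, 0.576 and 0.682, which overlaps that control. At 5.00% slick oil it was 1.16, 1.09 and 1.15, above the 0.91, 0.891 and 1.04 of the slick control.

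Likeness between names was measured as the root mean square difference of their log2 levels over the 24 libraries. Each level was first centred on the mean of that name in the controls of the same oil, so differences between both controls do not enter. The measure is a description across libraries that share depth and batches. Among the 102 other names counted in all libraries, those nearest to ola-miR-17 were ccr-miR-454b (0.20) and ola-miR-106a (0.20), followed by ccr-miR-722 and ssa-miR-722-5p (0.28 each). Nearest to ola-miR-19b after ssa-miR-19c-4-5p were dre-miR-93 (0.24) and ccr-miR-454b (0.25), followed among the non-members by ssa-miR-722-5p and ccr-miR-722 (0.27 each). Both miR-722 names had the same rounded log2 fold change at 0.54% source oil (0.54 ± 0.13) and at 5.00% slick oil (-0.40 ± 0.23). They may therefore be a single measurement under 2 names. sha-miR-92a had chi-miR-125b-5p (0.23), ssa-miR-222a-5p (0.27) and ssa-miR-181b-5p (0.27) nearest, and hsa-miR-25-5p at rank 7 (0.30).

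ssa-miR-18a-5p was unlike the rest of the family in this measure. Its nearest names were aca-miR-132-5p (0.22), ggo-miR-499a (0.25) and ipu-miR-130c (0.29), and no member stood closer than sha-miR-92a at rank 35 (0.47). From ola-miR-17, ssa-miR-18a-5p stood at rank 69 (0.58) and sha-miR-92a at rank 76 (0.63), although all come from a single precursor in other vertebrates. Large deviations weigh most in a root mean square. In replicate 3 at 2.50% slick oil ssa-miR-18a-5p deviated by -1.23, ola-miR-17 by 0.78 and ola-miR-19b by 1.49. That library therefore has a large part in the distances of ssa-miR-18a-5p from these names, and the measure was not repeated without it.

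The miRNA names whose mammalian counterparts MYC represses (let-7, miR-15, miR-16, miR-22, miR-23, miR-26, miR-29, miR-30 and miR-34) did not share a direction at 0.54% source oil: of 14 tested, 3 were higher and 5 lower, beside 39.5% of all names called (17.6% higher and 21.8% lower), with a median log2 fold change of -0.02, against 0.03 over all names. At 5.00% slick oil 1 of 13 was higher and none lower, beside 5.5% of all names called. There 11 of 13 log2 fold changes were positive, beside 56 of all 109 names (median 0.12, against 0.01 over all names). At 1.25% slick oil none was called, as none was over all names, and 13 of 13 were positive, beside 65 of all 117 names (median 0.24, against 0.02). At 2.50% slick oil none was called either, and 8 of 12 were positive, beside 60 of all 117 names. In the slick control against the source control, 8 of 13 were lower and 1 higher, beside 46% of all names called (24.8% lower), with a median of -0.66, against 0.05 over all names. In each comparison the list holds several names of the same kind. Examples are ola-let-7e, ola-let-7g and ssc-let-7i, and oar-miR-23b, ssa-miR-23b-5p and dre-miR-23a-3-5p. Such names may share reads, so these counts of names are not counts of separate miRNAs. ola-miR-430a is of a fish family that clears maternal RNA in zebrafish embryos and has a seed resembling that of miR-17. It was higher at 0.54% source oil with 0.34 ± 0.11 (adjusted p = 0.0405, edgeR) and in the slick control against the source control with 0.64 ± 0.13 (adjusted p = 0.00343, edgeR). Its source slope was called too (0.35, adjusted p = 0.0410, edgeR). No call was made for it at 0.135% or 0.27% source oil, at any slick concentration or in the slick slope. The difference between the responses at the highest concentrations was not called either (-0.28, adjusted p = 0.328, edgeR).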

How the data were processed

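Small RNA of 24 libraries in 8 groups of 3 was analysed from the deposited files. For each of the 6 exposures the authors deposited a table of read counts by mature miRNA name and a result table whose columns give a mean signal per group (size-factor-scaled counts, from the values), a score (the difference of these means, from the values), a log2 fold change and a p-value with FDR, per the file headers. DESeq2 is named in the submitters' processing notes. Not given in the sources used here are the aligner, the release of miRBase and how reads matching several names were counted, so reads of near-identical miRNAs may be split between names or counted under both.

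Counts were tested with edgeR 4.0.16 (R 4.3.3, TMM, glmQLFit and glmQLFTest) over names counted in every library of a fit and with at least 10 counts in 3 libraries. SE was taken as the size of the log2 fold change over the root of its F statistic. Ratios of counts were tested by exact permutation with SciPy 1.17.1. Alternatives were all names, no count minimum, library totals (summed over the names tested) or RLE factors, and DESeq2 1.42.0. Others were all 12 libraries of an oil, a replicate block and leaving out each library. Scripts were tested on simulated data. The members, the further lists, the filter and the alternatives were chosen with earlier results of these data known. The text names all 9 members, other names of the same family numbers and miR-430, and the 3 nearest non-members of 4 members. Same-numbered exposed and control libraries deviated together, with correlations of 0.455, 0.591 and 0.387, at 2.50% slick oil, and not in every pair elsewhere.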

Additional observations from a re-analysis of the deposited data

Results flagged for a closer look

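The responses to 5.00% slick oil and to 0.54% source oil were compared by an interaction term in edgeR. This term passed the adjusted threshold for 5 of the 9 members, beside 27 of all 107 names tested. With names at 0 in some libraries also tested it passed for 0 members. The slick minus source difference was -0.98 on the log2 scale for ola-miR-17, 0.81 for sha-miR-92a, -0.73 for ola-miR-19b, -0.73 for ssa-miR-19c-4-5p and -0.84 for ola-miR-106a. The 2 miR-19 names have nearly the same counts and count as a single measurement. Each oil was measured in its own experiment with its own control, so oil and experiment cannot be told apart.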

How the results depend on the processing

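The number of members called changed most when names at 0 in some libraries were also tested: 0 at 5.00% slick oil, 0 at 0.27% and 2 at 0.54% source oil, 0 for the difference between the oils at the highest concentrations and 4 between the controls. Over all 12 slick libraries it was 0 at 5.00%, also with names of unequal control counts kept, a choice made after seeing the data. Fitting all 12 libraries of an oil lost 2 member calls in all, with or without names of unequal control counts. These were the one at 5.00% slick oil and another at a source concentration. Only at 2.50% slick oil did all 3 same-numbered pairs of exposed and control libraries correlate above 0.1, and there the replicate block changed no call. That pairing was read from these data and is not given by the labels. Elsewhere the block gave 0 members at 0.27% source oil (adjusted p of 0.0518 for ola-miR-17 and the other 5) and 8 for the difference between the oils, and changed no other call. Leaving out each library in turn gave 0 to 1 members at 5.00% slick oil, 0 to 6 at 0.27% and 4 to 8 at 0.54% source oil, 0 to 1 for the slick slope, 7 to 8 for the source slope, 2 to 8 for the difference between the oils, 0 to 1 for it at the middle rank and 4 to 7 between the controls.
With library totals alone the sign changed at 5.00% slick oil for ola-miR-19b (-0.075), ssa-miR-19c-4-5p (-0.074) and hsa-miR-25-5p (-0.030), and for ssa-miR-18a-5p at 0.27% source oil (0.030) and in the source slope (0.064). All 12 slick libraries turned dre-miR-93 at 5.00% to 0.022, and the highest concentration alone turned the slick ratio of ola-miR-19b to sha-miR-92a to -0.21. Values that changed sign when 1 library was left out ranged at 1.25% slick oil from -0.11 to 0.40 for sha-miR-92a, at 2.50% from -0.043 to 0.90 for ola-miR-106a and from -0.25 to 0.30 for ola-miR-17, at 5.00% from -0.012 to 0.18 for ssa-miR-19c-4-5p, from -0.013 to 0.17 for ola-miR-19b and from -0.22 to 0.11 for dre-miR-93, at 0.135% source oil from -0.22 to 0.059 for hsa-miR-25-5p, between the controls from -0.17 to 0.087 for hsa-miR-25-5p, and for the slick ratio of ola-miR-19b to sha-miR-92a from -0.10 to 0.20. The source ratios to sha-miR-92a ranged from 0.672 to 0.826 for ola-miR-17 and from 0.708 to 0.907 for ola-miR-19b. The cause was not tested. Of the small differences not given one by one, 7 of 7 at 1.25% slick oil, 4 of 8 in the slick slope, 4 of 6 at 0.135% source oil, and for the difference between the oils 3 of 9 at the lowest and 6 of 8 at the middle rank changed sign under some alternative, and none was called.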
